A study of Mus musculus with 5 samples.

Results

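Open-angle glaucoma is the form of glaucoma in which aqueous humor reaches its drainage tissue but leaves the eye against raised resistance. The genes followed here are 10 that are tied to this disease in people or that mark the trabecular meshwork, the porous tissue in the iridocorneal angle through which most aqueous humor drains. They were taken by name from the table of counts per gene by a rule that uses no measured value, though earlier results of these data were known when they were chosen. Of the 56941 genes in the table, 19713 had at least 10 counts in at least 1 pool, and all 10 chosen genes were among these. Myoc, Cyp1b1 and Optn are genes in which mutations cause inherited glaucoma. Cav1, Cav2, Tmco1 and Abca1 lie at places in the human genome where common variants are associated with open-angle glaucoma. Mgp, Chil1 and Angptl7 are secreted products for which meshwork cells are known.

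RNA was sequenced from dissected iridocorneal angle of untreated mice aged 12 months and labelled as male and female. There were 3 pools of DBA/2J and 2 pools of DBA/2J-Gpnmb+/SjJ (Gpnmb+) mice. DBA/2J mice carry a nonsense allele of Gpnmb together with the b allele of Tyrp1, and they develop pigment dispersion and high intraocular pressure with age. Gpnmb+ mice carry a functional Gpnmb allele on the same background and share the Tyrp1 b allele, so the comparison asks how RNA in the angle of glaucomatous mice differs from that of the matched strain without raised pressure. The authors describe each pool as tissue of 3 mice, whereas the library names carry 3 animal fields for every DBA/2J pool but 2 for the Gpnmb+ pools. Iris and ciliary body were cut away by hand, though the authors describe some remnants of both on the dissected ring. Adhesions between iris and cornea in DBA/2J eyes can change what is dissected.

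Between 43900661 and 49837758 counts fell on genes in a pool. The counts of Gpnmb lay between 1946 and 2234 in DBA/2J and between 110568 and 129659 in Gpnmb+. Its log2 fold change of -5.67 had a standard error (SE) of 0.14 and an adjusted p of 0.000231 by edgeR with Benjamini-Hochberg adjustment. Xist, expressed from the inactive X chromosome of females, had counts of 596, 0 and 2417 in DBA/2J (pools 1 to 3) against 7843 and 9152 in Gpnmb+ (pools 1 and 2). The Y-linked Ddx3y had counts of 3608, 4168 and 1567 in DBA/2J against 0 and 4 in Gpnmb+. Every DBA/2J pool thus held RNA of males and the Gpnmb+ pools held nearly none, so genotype and the sex of the pooled mice cannot be told apart in any comparison below. The authors list more males than females among the Gpnmb+ mice, which these Y-linked counts do not match.

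Trabecular meshwork cells lie on beams of extracellular matrix, keep the outflow path open by phagocytosis and matrix turnover, and release large amounts of a few secreted proteins. Myocilin (Myoc), matrix Gla protein (Mgp), chitinase-like 1 (Chil1) and angiopoietin-like 7 (Angptl7) belong to that secreted group. Cytochrome P450 1b1 (Cyp1b1) is a membrane-bound enzyme that oxidises estradiol, retinoids and xenobiotics, and its loss causes congenital glaucoma. Optineurin (Optn) is a receptor that hands ubiquitinated cargo to autophagosomes. Caveolins 1 and 2 (Cav1, Cav2) form the coat of caveolae, the small invaginations of the plasma membrane that respond to stretch. Tmco1 is a membrane protein of the endoplasmic reticulum that takes part in calcium release and in the insertion of membrane proteins, and Abca1 exports cellular cholesterol to lipid-poor apolipoproteins.

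Levels are given as CPM, the number of counts in every 1000000 counts of a pool after scaling with edgeR's trimmed mean of M-values (TMM). Differential expression was called where edgeR's quasi-likelihood test, run over all 19713 genes, gave an adjusted p (Benjamini-Hochberg) of 0.05 or less together with a fold change of 1.5 or more. Log2 fold changes are DBA/2J minus Gpnmb+, so a positive value is higher in DBA/2J. By this rule 0.796% of the tested genes were called (0.502% higher and 0.294% lower in DBA/2J), and 1 of the 10 glaucoma and meshwork genes, Cyp1b1, was among them. DESeq2's Wald test with the same thresholds called 5.21% of all genes and 3 of the 10 (Cyp1b1, Chil1 and Myoc), and with ashr-moderated fold changes it called 4.12% and again 3 of the 10. An unadjusted p of at most 0.05 in edgeR, with no minimum of fold, was reached by 15.9% of all genes and by 5 of the 10 (these 3, Angptl7 and Cav1). With the smaller tail doubled, an exact two-sided permutation test over 3 pools against 2 cannot give a p below 0.2, so single-gene p-values come from the model across all genes. In 34.5% of all tested genes every DBA/2J pool lay on one side of both Gpnmb+ pools, and 6 of the 10 genes, Chil1, Cyp1b1, Myoc, Angptl7, Cav1 and Cav2, had this arrangement. Chil1 and Cyp1b1 were higher in DBA/2J, an arrangement of 17.3% of all genes, and the other 4 were lower, as were 17.2% of all genes.

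**Figure D1:**
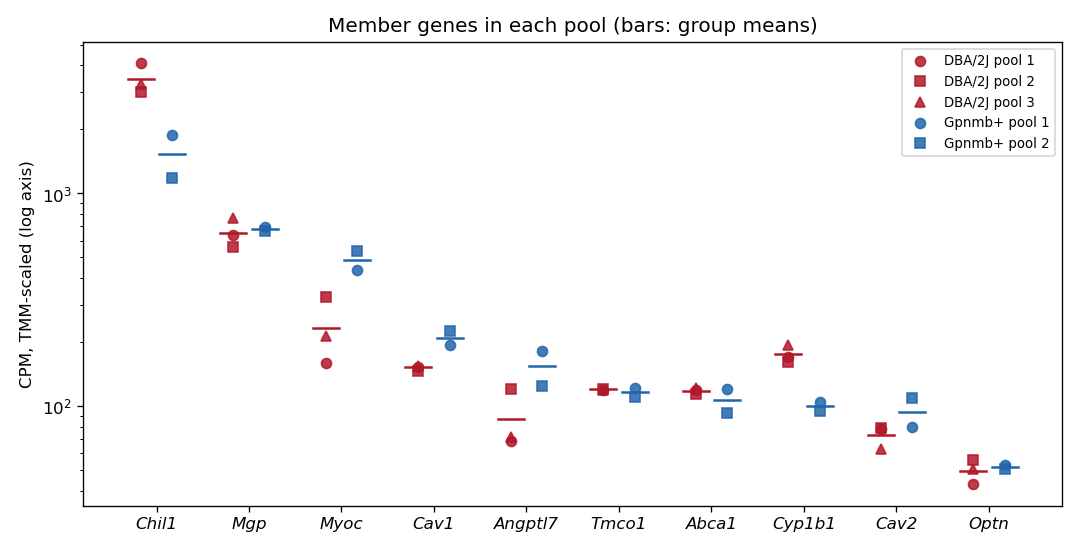
CPM of the 10 genes in each pool on a log axis, with DBA/2J pools in red, Gpnmb+ pools in blue, a symbol for each pool number and a bar at each group's mean. Chil1 is the highest in every pool, its DBA/2J pools lie above both Gpnmb+ pools, and the pools of Optn, Tmco1, Abca1 and Mgp overlap between the strains.

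The promoters of the 4 genes with the largest fold changes are shown because they are the stretches on which known regulators of these genes could act. They were taken from the RefSeq promoter table (built on GRCm38.p6), placed in GRCm39 by an exact match, and are printed 5′ to 3′ on the strand of the gene up to the annotated edge of the gene, with matches to 5 searched motifs in capitals. The searched motifs were the TATA box TATAAA, the xenobiotic response element core GCGTG that the aryl hydrocarbon receptor binds, the glucocorticoid receptor half-site TGTTCT, the GC box GGGCGG and the AP-1 site TGANTCA, each on both strands over 250 bases before the RefSeq start. The table held windows for 9 of the 10 genes, all but Mgp. The sequences are those of the reference strain C57BL/6J and may differ from DBA/2J.
Myoc, GRCm39 chr1:162466469-162466717, plus strand: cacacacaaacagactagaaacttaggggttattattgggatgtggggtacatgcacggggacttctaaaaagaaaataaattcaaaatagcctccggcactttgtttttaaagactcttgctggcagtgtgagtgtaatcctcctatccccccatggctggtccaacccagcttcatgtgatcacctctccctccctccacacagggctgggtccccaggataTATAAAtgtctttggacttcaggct
Cyp1b1, GRCm39 chr17:80022533-80022740, minus strand: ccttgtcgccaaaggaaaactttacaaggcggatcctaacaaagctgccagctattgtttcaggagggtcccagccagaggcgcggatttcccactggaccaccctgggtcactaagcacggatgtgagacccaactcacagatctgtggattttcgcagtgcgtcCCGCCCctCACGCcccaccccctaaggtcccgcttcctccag
Chil1, GRCm39 chr1:134109644-134109888, plus strand: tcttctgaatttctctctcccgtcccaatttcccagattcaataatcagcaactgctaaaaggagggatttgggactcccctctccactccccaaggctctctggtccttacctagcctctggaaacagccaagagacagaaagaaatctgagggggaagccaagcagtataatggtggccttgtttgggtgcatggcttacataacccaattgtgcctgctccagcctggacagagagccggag
Angptl7, GRCm39 chr4:148584924-148585169, minus strand: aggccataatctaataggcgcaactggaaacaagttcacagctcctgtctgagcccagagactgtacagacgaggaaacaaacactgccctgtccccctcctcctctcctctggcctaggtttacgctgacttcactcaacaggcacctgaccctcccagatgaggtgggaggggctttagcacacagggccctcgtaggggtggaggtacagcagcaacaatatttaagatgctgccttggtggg
Myoc carries a TATA box 26 bases before its RefSeq start, a motif found in 12.4% of the 32841 promoters of the table. Cyp1b1 carries a GC box 84 bases before its RefSeq start, which lies inside the annotated gene and past the end of the printed stretch, and a xenobiotic response element core 76 bases before it, both read on the other strand, so that their letters appear above as CCGCCC and CACGC. The first is present in 32.7% and the second in 28.2% of all promoters. None of the 5 motifs was found in the windows of Chil1 and Angptl7, which says only that those letters are not there. The glucocorticoid receptor half-site, present in 16.1% of promoters, lay in the windows of Optn, Cav1 and Abca1 and not in that of Myoc.

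Per kilobase of merged exons, Chil1 had the highest level in DBA/2J, at a mean of 1174.8 CPM per kilobase, followed by Mgp at 550 and Myoc at 106. Angptl7 (40.2), Cav1 (30.3), Cyp1b1 (24.2), Tmco1 (22.5), Cav2 (17.1), Abca1 (9.64) and Optn (4.39) completed the order. Secreted products thus took the first 4 places. Cyp1b1 and Tmco1 overlapped over the DBA/2J pools, and no other pair of neighbours in that order did. In Gpnmb+ the 2 highest were Mgp, at 588 and 559 CPM per kilobase, and Chil1, at 639 and 403, and these overlapped. Cyp1b1 stood at 14.5 and 13.1 CPM per kilobase there, below both pools of Tmco1 (22.9 and 20.6) and of Cav2 (18.6 and 25.3). In DBA/2J the exon length chosen matters below the third place, since Tmco1 moved from the seventh to the fourth place with the length of its canonical transcript. In Gpnmb+ it changes the distance between the means of the 2 highest genes but not their order. The means of Mgp and Chil1 were 574 and 521 CPM per kilobase of merged exons there. Per kilobase of canonical transcript they were 1118.6 and 833 CPM, farther apart.

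Chil1 had the highest CPM of the 10 genes in every pool and the largest fold change. Its product is a secreted chitin-binding glycoprotein without chitinase activity that rises in inflammation and tissue remodelling, and meshwork cells are among its known sources. Chil1 (ENSMUSG00000064246, listed as Chi3l1 in the annotation, GRCm39 chr1:134109889-134117919) had counts of 181748, 128433 and 146386 in DBA/2J (pools 1 to 3) against 95356 and 57899 in Gpnmb+ (pools 1 and 2). These correspond to 4088.1, 2992.0 and 3281.6 CPM in the DBA/2J pools against 1879.4 and 1183.7 in the Gpnmb+ pools. The lowest DBA/2J pool was 1.59 times the highest Gpnmb+ pool, and the 2 Gpnmb+ pools themselves differed 1.59-fold. The means were 3453.9 ± 568 CPM (SD, n = 3) in DBA/2J and 1531.5 ± 492 CPM (SD, n = 2) in Gpnmb+. Chil1 thus differed by 1.17 on the log2 scale (SE 0.25), a 2.26-fold difference with a 95% interval from 1.48 to 3.43, and the adjusted p was 0.103 by edgeR with Benjamini-Hochberg adjustment, so Chil1 was not called.

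The call of Chil1 depended on the test. DESeq2's Wald test gave an adjusted p of 5.48e-05 for it, and edgeR without the count minimum gave 0.0495. Leaving out single pools moved the log2 fold change between 0.88, without Gpnmb+ pool 2, and 1.55, without Gpnmb+ pool 1. Among all genes ranked per kilobase of exon, Chil1 held places 11, 16 and 13 in DBA/2J pools 1 to 3 and places 27 and 46 in Gpnmb+ pools 1 and 2. Chil1 alone took 0.399% of all counts in DBA/2J pool 1 (95% Wilson interval 0.3968% to 0.4004%) and 0.12% in Gpnmb+ pool 2 (0.1189% to 0.1209%). These intervals cover counting error only and are far narrower than the spread between pools. Chil1 shares 195 exonic bases with the noncoding gene Gm46158 on the opposite strand.

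The summed level of 11 nonpigmented ciliary epithelium markers was, like Chil1, higher in every DBA/2J pool. It reached 2815.5, 2944.6 and 3461.7 CPM in DBA/2J against 1792.0 and 1229.0 CPM in Gpnmb+. Within DBA/2J the sum was lowest in pool 1, where Chil1 was highest, whereas within Gpnmb+ both were higher in pool 1. All 11 markers were detected in every pool, and the median log2 fold change was 0.94. Pools of 8 did not overlap between the strains, as in 34.5% of all tested genes. edgeR, which called 0.796% of all genes, called 2 (Col9a1 and Six6). DESeq2's Wald test, which called 5.21% of all genes, called 7. Optc, which encodes opticin, a proteoglycan of the vitreous made by ciliary epithelium, had counts of 23303, 25842 and 30503 in DBA/2J against 8713 and 3826 in Gpnmb+. Neutrophil markers, of which 5 passed the count minimum, summed to 265, 37 and 44 CPM in DBA/2J against 117 and 21 CPM in Gpnmb+. Their pools overlapped between the strains, with the same order of pools within each strain as Chil1, a median log2 fold change of 0.99 and no call by either tool. The 8 skeletal muscle markers summed to 194, 276 and 443 CPM against 185 and 118 CPM, with a median of 1.03, no call by edgeR and 2 by DESeq2's Wald test. Cartilage-type matrix markers, of which 6 passed the count minimum, summed to 186, 198 and 181 CPM in DBA/2J against 134 and 113 CPM in Gpnmb+, again higher in every DBA/2J pool. Pools of 4 of them did not overlap, 3 higher and 1 lower in DBA/2J, the median was 0.64, and edgeR called none and DESeq2's Wald test 3. The 8 macrophage markers summed to 3130.1, 4230.1 and 3377.5 CPM in DBA/2J against 2990.4 and 3840.2 CPM in Gpnmb+, which overlapped. Of them 7 had log2 fold changes above 0, with a median of 0.31 and no call by either tool. C1qa and C1qc were higher in every DBA/2J pool. The part of RNA from the cells that these lists mark in the Chil1 difference was not tested. In bulk tissue, more cells of a type and more RNA per cell cannot be told apart.

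Other genes of the chitinase-like family were low. Of 9 listed beside Chil1, 7 passed the count minimum, none was called by edgeR, 3 had an unadjusted p of at most 0.05 and DESeq2's Wald test called none. Their median log2 fold change was -0.20, against -0.02 over all genes. Ovgp1, an oviduct glycoprotein of the family, had counts of 4, 2 and 5 in DBA/2J against 13 and 15 in Gpnmb+, and Chil5, a chitinase-like member, had 31, 23 and 22 against 72 and 46. Chia1, the acidic chitinase, was at or under 3 counts in every DBA/2J pool and reached 3 and 51 in Gpnmb+, so no fold is given for it. The summed level of these 7 genes, 73.5 to 95.1 CPM over the pools, was a small part of that of Chil1 in each of them.

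Cyp1b1 was the only one of the 10 genes that edgeR called, and it was higher in DBA/2J. Cyp1b1 (ENSMUSG00000024087, GRCm39 chr17:80008966-80022532, minus strand) had counts of 7585, 6906 and 8648 in DBA/2J (pools 1 to 3) against 5324 and 4652 in Gpnmb+ (pools 1 and 2). On the CPM scale these were 171, 161 and 194 in DBA/2J against 105 and 95.1 in Gpnmb+. The DBA/2J pools lay within 1.21-fold of one another and the lowest of them was 1.53 times the higher Gpnmb+ pool. Means were 175 ± 16.9 CPM (SD, n = 3) and 100 ± 6.95 CPM (SD, n = 2). The log2 fold change was 0.81 (SE 0.11, 95% interval 0.54 to 1.08), 1.75-fold, with an adjusted p of 0.0467 in edgeR's quasi-likelihood test after Benjamini-Hochberg adjustment.

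This adjusted p lay close to the threshold. It rose to 0.0557 with upper-quartile scaling and to 0.0608 with total counts in place of TMM, and the call was lost with each of the 5 pools left out, at adjusted p-values from 0.0793 without Gpnmb+ pool 1 to 0.199 without Gpnmb+ pool 2 (edgeR with Benjamini-Hochberg adjustment). The direction held in each of these fits, with log2 fold changes from 0.73 to 0.88. The summed ciliary epithelium, skeletal muscle and cartilage-type matrix markers given beside Chil1 were also higher in all DBA/2J pools, and their part in the Cyp1b1 difference was not tested. The ratio of Chil1 to Cyp1b1 per kilobase was 59.0, 45.8 and 41.7 in DBA/2J and 44.1 and 30.6 in Gpnmb+, so it overlapped between the strains.

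No other gene of the Cyp1b1 pathway passed the test. The aryl hydrocarbon receptor is the ligand-activated factor that induces the Cyp1 enzymes, with Arnt as its partner and Ahrr, Tiparp and Nqo1 among its targets. Of 8 such genes beside Cyp1b1, edgeR called none at an adjusted p of at most 0.05, DESeq2's Wald test called none and none had an unadjusted p of at most 0.05. All 8 had log2 fold changes below 0, with a median of -0.18. Ahrr, the receptor's repressor, had counts of 173, 180 and 166 in DBA/2J against 247 and 247 in Gpnmb+, for a log2 fold change of -0.33. Cyp1a1 and Cyp1a2, the closest relatives of Cyp1b1, had 4 to 12 and 1 to 14 counts over the 5 pools, and no difference was detectable at this depth.

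Among 15178 genes with a mean of at least 1 CPM, the 3 whose profile over the 5 pools was most like that of Cyp1b1 were Dpy19l3, Gm3226 and Cdh2. Likeness was the root mean square difference between log2 CPM profiles centred on each gene's mean, and it was 0.0477, 0.0519 and 0.0537 for these genes. Dpy19l3, a C-mannosyltransferase, had a log2 fold change of 0.89 and was called. Cdh2, the neural cadherin, had 77.4, 72.1 and 79.8 CPM in DBA/2J against 44.1 and 40.6 in Gpnmb+, and it was called at a log2 fold change of 0.85 (SE 0.09 and adjusted p = 0.0283 by edgeR with Benjamini-Hochberg adjustment). Gm3226, a gene without a known product, stood at 0.78 and was not called.

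**Figure D2:**
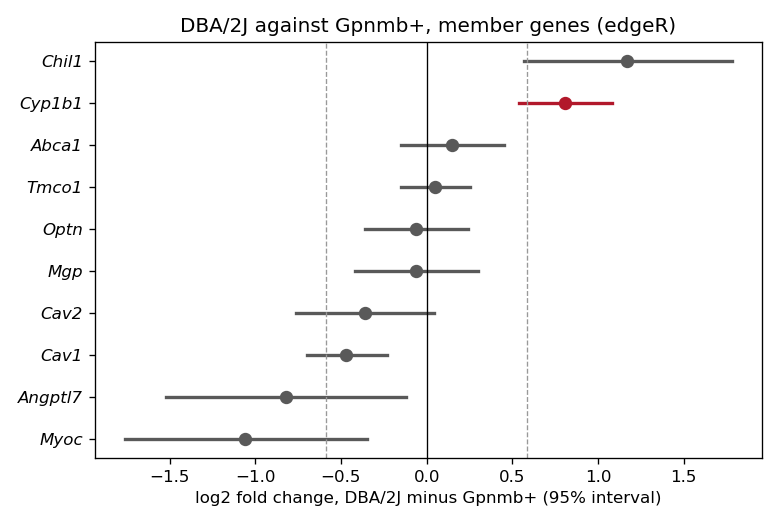
Log2 fold change of each of the 10 genes, DBA/2J minus Gpnmb+, from edgeR's quasi-likelihood fit, as a point with its 95% interval, with the called gene in red and dashed lines at a fold change of 1.5 in either direction. Cyp1b1 is the single called gene at 0.81, while the intervals of Chil1 and of Myoc, at 1.17 and -1.06, are wider and those of Tmco1, Optn, Mgp, Abca1 and Cav2 include 0.

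Myoc, whose product carries an olfactomedin domain and whose mutant forms accumulate in meshwork cells and cause juvenile and adult open-angle glaucoma, was lower in all DBA/2J pools. Myoc (ENSMUSG00000026697, GRCm39 chr1:162466718-162477265) had counts of 7106, 13989 and 9514 in DBA/2J (pools 1 to 3) against 22068 and 26147 in Gpnmb+ (pools 1 and 2). These are 160, 326 and 213 CPM against 435 and 535 CPM. The DBA/2J pools differed 2.04-fold from one another, and the highest, pool 2, lay 1.33-fold below the lower Gpnmb+ pool. Means were 233 ± 84.8 CPM (SD, n = 3) in DBA/2J and 485 ± 70.4 CPM (SD, n = 2) in Gpnmb+. Myoc differed by -1.06 on the log2 scale (SE 0.29), 2.08-fold lower with a 95% interval from 1.28-fold to 3.39-fold, and the adjusted p was 0.165 by edgeR with Benjamini-Hochberg adjustment.

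With DESeq2's Wald test the adjusted p of Myoc was 0.00793. Without DBA/2J pool 2 the log2 fold change was -1.38, and without DBA/2J pool 1 it was -0.85. DBA/2J pool 2 was the pool without Xist counts, and it held the Myoc level nearest to the Gpnmb+ pools. The part of sex in the Myoc level was not tested. Myoc shares 93 exonic bases with Myocos on the opposite strand, and the strand used in counting is not given in the sources used here, so reads from that stretch could belong to either gene. The ratio of Chil1 to Myoc per kilobase was 19.1, 6.85 and 11.5 in DBA/2J and 3.22 and 1.65 in Gpnmb+.

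Olfactomedin-domain genes other than Myoc did not share one direction. All 8 of them passed the count minimum, 4 had log2 fold changes above 0 and 4 below, and the median was -0.04. None was called by edgeR, 4 had an unadjusted p of at most 0.05 (15.9% of all genes did) and DESeq2's Wald test called 2 (5.21% of all genes). Olfml2a, a secreted matrix-binding member, had counts of 9383, 10217 and 9868 in DBA/2J against 6415 and 4469 in Gpnmb+, for a log2 fold change of 1.04 (SE 0.16 and adjusted p = 0.0522 by edgeR with Benjamini-Hochberg adjustment). Olfm3, a neural member, had a log2 fold change of 1.01 on 74 to 211 counts. Olfm4 had 7307, 10988 and 7460 counts against 7134 and 20081, so its pools overlapped.

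Myoc is known as a gene that glucocorticoids raise in meshwork cells. Of 14 genes that glucocorticoids induce in many tissues, edgeR called 1, Tsc22d3, which encodes the glucocorticoid-induced leucine zipper and was lower in DBA/2J. It had counts of 2330, 2494 and 2554 in DBA/2J against 4446 and 4390 in Gpnmb+, for a log2 fold change of -0.67 (SE 0.08 and adjusted p = 0.0382, edgeR with Benjamini-Hochberg adjustment). The other 13 were not called, and the median of the list was 0.14. Fkbp5, a further widely used reporter of the receptor chosen for mention after its values were seen, had a log2 fold change of -0.03. Lcn2, an acute-phase lipocalin also named after its values were seen, lay farthest from 0 at 2.58, but its counts of 54304, 11304 and 6104 in DBA/2J overlapped with 7792 and 1339 in Gpnmb+. The call of Tsc22d3 was lost with each of the 5 pools left out.

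Angptl7, a secreted protein of cornea and meshwork for which loss-of-function variants in people go with lower eye pressure, was lower in all DBA/2J pools by a narrow margin. Angptl7 (ENSMUSG00000028989, GRCm39 chr4:148579639-148584923, minus strand) had counts of 3055, 5173 and 3202 in DBA/2J (pools 1 to 3) against 9242 and 6112 in Gpnmb+ (pools 1 and 2). The CPM values were 68.7, 121 and 71.8 in DBA/2J and 182 and 125 in Gpnmb+. DBA/2J pool 2 and Gpnmb+ pool 2 lay 1.04-fold apart, so the groups barely separated. Angptl7 differed by -0.82 on the log2 scale (SE 0.29), 1.77-fold lower with a 95% interval from 1.09-fold to 2.86-fold, and the adjusted p was 0.253 by edgeR and 0.0692 by DESeq2's Wald test, each with Benjamini-Hochberg adjustment. Means were 87.0 ± 29.1 CPM (SD, n = 3) and 154 ± 40.4 CPM (SD, n = 2).

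Angptl7 and Myoc had their highest DBA/2J value in pool 2, and so did the sum of the corneal stroma markers. The summed level of 5 corneal stroma markers was 2287.6, 3108.9 and 2355.1 CPM in DBA/2J against 3286.0 and 3376.3 in Gpnmb+. Aldh3a1, an abundant corneal enzyme, carried most of that peak with 948, 1631.7 and 850 CPM in DBA/2J against 1595.9 and 2113.6 CPM in Gpnmb+, whereas Ptgds was highest in DBA/2J pool 3 and Ktn1 in pool 1. All 5 were detected in every pool, edgeR called none and DESeq2's Wald test 1, and their median log2 fold change was -0.16. Kera, a keratocyte proteoglycan, had counts of 452, 767 and 661 in DBA/2J against 1220 and 1800 in Gpnmb+. The 6 Schwann cell markers summed to 296, 342 and 316 CPM in DBA/2J against 387 and 442 CPM in Gpnmb+, lower in every DBA/2J pool. Their median log2 fold change was -0.95. edgeR called 2 of them lower and DESeq2's Wald test called 4, against 0.796% and 5.21% of all genes. The 5 corneal endothelium markers summed to 700, 733 and 674 CPM against 731 and 833 CPM, which overlapped, with a median of -0.34. Slc4a11, a membrane transporter of that endothelium, was called lower (-1.75, adjusted p = 0.0283 by edgeR with Benjamini-Hochberg adjustment) and Cdh2, N-cadherin, was called higher (0.85). Col8a2 (-0.40) and Alcam (-0.34) were not called, but their pools did not overlap and their highest DBA/2J value lay in pool 2. Slc4a11 and Col8a1 (0.10, with overlapping pools) were highest in DBA/2J pool 1, and Cdh2 in DBA/2J pool 3. The 6 photoreceptor markers summed to 582, 826 and 560 CPM in DBA/2J against 338 and 1838.3 CPM in Gpnmb+, which overlapped. Their median log2 fold change was -0.78, with no call by either tool. The part of corneal, Schwann cell or photoreceptor RNA in the Myoc and Angptl7 differences was not tested. Of 7 markers of corneal and conjunctival epithelium, 5 had log2 fold changes above 0, the median was 0.20 and none was called, while Krt12, the keratin of corneal epithelium, had 11298, 4970 and 421 counts against 86337 and 27106. The ratio of Myoc to Angptl7 per kilobase was 2.29, 2.67 and 2.93 in DBA/2J and 2.36 and 4.22 in Gpnmb+, which overlapped.

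Of 6 angiopoietin-like genes listed beside Angptl7, 4 passed the count minimum and none was called by edgeR, with 1 at an unadjusted p of at most 0.05 and 1 called by DESeq2's Wald test. The median log2 fold change was -0.05. Angptl1, a secreted glycoprotein, had counts of 219, 388 and 384 in DBA/2J against 858 and 826 in Gpnmb+, and the log2 fold change was -1.17 (SE 0.26 and adjusted p = 0.115 by edgeR with Benjamini-Hochberg adjustment). Angptl4, an inhibitor of lipoprotein lipase, had 781, 180 and 447 counts against 308 and 169, so its pools overlapped. Angptl6 had 27 to 51 counts over the 5 pools.

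**Figure D3:**
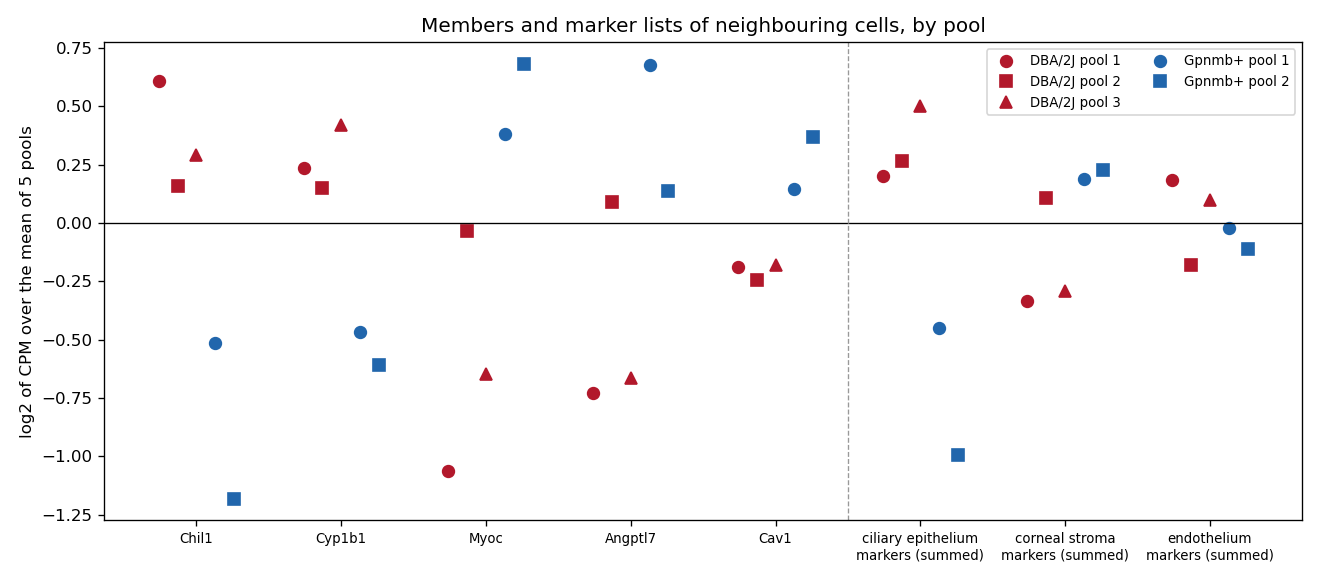
Log2 of each pool's CPM over the mean of the 5 pools for Chil1, Cyp1b1, Myoc, Angptl7 and Cav1, and to the right of the dashed line the same for the summed CPM of marker lists of ciliary epithelium, corneal stroma and endothelium. DBA/2J pools are red and Gpnmb+ pools blue. Chil1, Cyp1b1 and the summed ciliary markers lie higher in every DBA/2J pool, and DBA/2J pool 2 is the highest red symbol for Myoc, Angptl7 and corneal stroma.

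Cav1 and Cav2, which lie 16.3 kilobases apart on chromosome 6, were both lower in every DBA/2J pool by less than 1.5-fold. Cav1 (ENSMUSG00000007655, GRCm39 chr6:17306140-17341451) had counts of 6807, 6330 and 6867 in DBA/2J (pools 1 to 3) against 9794 and 11030 in Gpnmb+ (pools 1 and 2). The CPM values were 153, 147 and 154 in DBA/2J and 193 and 225 in Gpnmb+. The DBA/2J pools lay within 1.04-fold of one another. Cav1 differed by -0.47 on the log2 scale (SE 0.1, 95% interval -0.70 to -0.23), 1.38-fold lower, with an adjusted p of 0.0959 by edgeR and 0.00142 by DESeq2's Wald test, each with Benjamini-Hochberg adjustment. Neither tool called Cav1, in DESeq2 because its fold change missed 1.5.

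Cav2 (ENSMUSG00000000058, GRCm39 chr6:17281026-17289877) had counts of 3486, 3371 and 2815 in DBA/2J against 4058 and 5308 in Gpnmb+, or 78.4, 78.5 and 63.1 against 80.0 and 109 CPM. The highest DBA/2J pool and the lower Gpnmb+ pool differed 1.02-fold. The log2 fold change was -0.36 (SE 0.16, 95% interval -0.76 to 0.04) and the adjusted p was 0.355 by edgeR with Benjamini-Hochberg adjustment. The ratio of Cav1 to Cav2 per kilobase was 1.68, 1.62 and 2.10 in DBA/2J and 2.08 and 1.79 in Gpnmb+. Both genes lie 31.7 megabases from Gpnmb on chromosome 6, the chromosome on which the strains differ by design. Cav1 shares 289 exonic bases with Gm68216 and Cav2 shares 89 with Gm15581, both noncoding genes on the opposite strand.

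The other genes of the caveolar coat did not pass the test either. Cavins stabilise the coat, Ehd2 holds the neck of the pit and pacsins bend the membrane. Of 8 such genes, edgeR and DESeq2's Wald test called none, none had an unadjusted p of at most 0.05, and 6 had log2 fold changes above 0, with a median of 0.16. Ehd2 had counts of 8372, 6362 and 7427 in DBA/2J against 7967 and 5884 in Gpnmb+, for a log2 fold change of 0.27. Cav3 and Cavin4, the muscle forms, had 49 to 67 and 30 to 130 counts. The summed level of 10 endothelial markers, a cell type rich in caveolae, was 458 to 589 CPM in DBA/2J and 481 to 511 CPM in Gpnmb+, with all 10 detected and none called. Of the 10, 6 had log2 fold changes below 0 and the median was -0.13. Pools of 5 did not overlap, as in 34.5% of all tested genes, with Flt4, Kdr, Egfl7 and Cldn5 lower and Vwf higher in DBA/2J. Smooth muscle markers summed to 884, 872 and 761 CPM in the DBA/2J pools against 1059.4 and 849 in the Gpnmb+ pools, which overlapped. Of these 8 markers 7 had log2 fold changes below 0, with a median of -0.25, no call by edgeR and 1 by DESeq2's Wald test. The part of endothelial or smooth muscle RNA in the Cav1 and Cav2 differences was not tested.

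Tmco1, Optn, Abca1 and Mgp showed overlapping pools and adjusted p-values of 0.609 or more in edgeR with Benjamini-Hochberg adjustment. Tmco1 (ENSMUSG00000052428, GRCm39 chr1:167135934-167161547) had the smallest fold change of the 10, 0.05 on the log2 scale, with 5273, 5213 and 5296 counts in the DBA/2J pools against 6171 and 5361 in the Gpnmb+ pools. Its 95% interval ran from 0.9-fold to 1.19-fold in DBA/2J relative to Gpnmb+. Tmco1 shares 859 exonic bases with the noncoding gene Gm57182 on the opposite strand. Of 7 other genes of the multipass translocon, the complex at the endoplasmic reticulum that inserts proteins with several membrane spans, edgeR and DESeq2's Wald test called none, none had an unadjusted p of at most 0.05, and the median log2 fold change was 0.06. The 3 farthest from 0 were Sec61g (-0.17), Nomo1 (0.17) and Sec61a1 (0.15).

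Optn (ENSMUSG00000026672, GRCm39 chr2:5022703-5068945, minus strand) had counts of 1901, 2382 and 2261 in DBA/2J against 2671 and 2479 in Gpnmb+. Its means were 49.6 ± 6.43 CPM (SD, n = 3) and 51.7 ± 1.39 CPM (SD, n = 2), and the 95% interval of the log2 fold change ran from -0.36 to 0.24. The kinase Tbk1, which phosphorylates optineurin and is itself a glaucoma gene, had counts of 1627, 1495 and 1634 in DBA/2J against 2168 and 2018 in Gpnmb+, for a log2 fold change of -0.22 (adjusted p = 0.261 by edgeR with Benjamini-Hochberg adjustment). Among 13 partners of optineurin and autophagy receptors, none was called by edgeR or by DESeq2's Wald test, 1 had an unadjusted p of at most 0.05, and the median was -0.04. Sqstm1, the receptor p62, stood at 0.16 and Gabarapl2, an autophagosome protein that such receptors bind, at -0.15. Optn shares 286 exonic bases with 4930551O13Rik on the opposite strand.

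Abca1 (ENSMUSG00000015243, GRCm39 chr4:53030787-53159900, minus strand) had counts of 5307, 4885 and 5436 in DBA/2J against 6103 and 4542 in Gpnmb+. On the CPM scale the Gpnmb+ values of 120 and 92.9 lay inside and below the DBA/2J range of 114 to 122. The log2 fold change was 0.15 (SE 0.12, 95% interval -0.15 to 0.45). Of 10 other genes of cholesterol efflux and its control, 8 had log2 fold changes above 0 with a median of 0.21, none was called by edgeR or by DESeq2's Wald test, and 4 had an unadjusted p of at most 0.05. Nr1h3, the liver X receptor that induces Abca1, had counts of 449, 399 and 455 in DBA/2J against 356 and 336 in Gpnmb+, for a log2 fold change of 0.51 (adjusted p = 0.145 by edgeR with Benjamini-Hochberg adjustment). Srebf1, the lipid synthesis factor that the same receptor induces, had a log2 fold change of 0.44 (adjusted p = 0.0867 by the same test). Lcat, which esterifies cholesterol in plasma lipoproteins, had the largest log2 fold change of the list, 1.14, on 15 to 51 counts. Its pools did not overlap, and its adjusted p was 0.252 by the same test.

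Mgp, an inhibitor of calcification that needs vitamin K-dependent carboxylation, was the second most abundant of the 10 genes per kilobase in DBA/2J. Mgp (ENSMUSG00000030218, GRCm39 chr6:136849433-136852821, minus strand) had counts of 28243, 24021 and 34085 in DBA/2J against 35440 and 32476 in Gpnmb+. The means of 653 ± 103 CPM (SD, n = 3) and 681 ± 24.4 CPM (SD, n = 2) differed by less than the spread between DBA/2J pools, and the 95% interval of the log2 fold change ran from -0.42 to 0.30. The ratio of Chil1 to Mgp per kilobase of merged exons was 2.6, 2.16 and 1.73 in DBA/2J and 1.09 and 0.72 in Gpnmb+. By this length Chil1 exceeded Mgp in all pools but Gpnmb+ pool 2. The Gpnmb+ means by this length were 521 for Chil1 and 574 for Mgp. Per kilobase of canonical transcript they were 833 and 1118.6, so Mgp had the higher mean by both lengths. Of 10 other genes of mineralization and carboxylation past the count minimum, edgeR called Bmp4, a bone morphogenetic protein whose signal Mgp binds and restrains. Bmp4 had counts of 2639, 2581 and 2860 in DBA/2J against 1804 and 1419 in Gpnmb+, for a log2 fold change of 0.92 (SE 0.11 and adjusted p = 0.0379 by edgeR with Benjamini-Hochberg adjustment), and its call was lost when any of the 3 DBA/2J pools or Gpnmb+ pool 2 was left out. Of the 10 genes, 5 had an unadjusted p of at most 0.05 (15.9% of all genes did). DESeq2's Wald test called 2 (5.21% of all genes) and the median was 0.13. Bmp2, named after its values were seen, had the largest log2 fold change of the list at 1.41, and its pools did not overlap. Its adjusted p was 0.0885 by edgeR with Benjamini-Hochberg adjustment.

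Beside these 10 genes, 14 other genes known from trabecular meshwork were all past the count minimum, as were 31 of 33 other glaucoma genes. Of the meshwork genes edgeR called 3, all lower in DBA/2J, against 0.796% of all tested genes. Of the 14, 8 had log2 fold changes above 0 and the median was 0.10. Tfap2b, a neural crest transcription factor needed for the meshwork, had counts of 2134, 2452 and 2113 in DBA/2J against 6774 and 6833 in Gpnmb+, for a log2 fold change of -1.43 (SE 0.11 and adjusted p = 0.0189 by edgeR with Benjamini-Hochberg adjustment). Edn3, an endothelin, had 2651, 2475 and 3131 counts against 5532 and 5784, for a log2 fold change of -0.86. Inmt, an indole methyltransferase, had 489, 629 and 762 counts against 1840 and 2402, for a log2 fold change of -1.58. None of the 3 calls held when any DBA/2J pool or Gpnmb+ pool 2 was left out, and 2 of the 14 genes were called without Gpnmb+ pool 1. DESeq2's Wald test called 5 of the 14, against 5.21% of all genes.

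Of the 31 other glaucoma genes edgeR called 4, against 0.796% of all tested genes. Of the 4, 2 were higher and 2 lower in DBA/2J, and the median of the 31 was 0.08. Ltbp2, a latent TGF-beta binding protein of microfibrils in which mutations cause congenital glaucoma, had counts of 22104, 19714 and 19535 in DBA/2J against 5887 and 4622 in Gpnmb+, for a log2 fold change of 2.14 (adjusted p = 0.0145 by edgeR with Benjamini-Hochberg adjustment). Six6, a homeobox factor that is also on the list of ciliary epithelium markers, had a log2 fold change of 1.74. Lmx1b, a transcription factor of the anterior segment, was lower, with 376, 473 and 521 counts against 1544 and 1515 and a log2 fold change of -1.56. Without DBA/2J pool 1, DBA/2J pool 2 or Gpnmb+ pool 2 none of the 31 was called, 1 was called without DBA/2J pool 3 and 3 were called without Gpnmb+ pool 1. DESeq2's Wald test called 7 of the 31, against 5.21% of all genes.

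**Figure D4:**
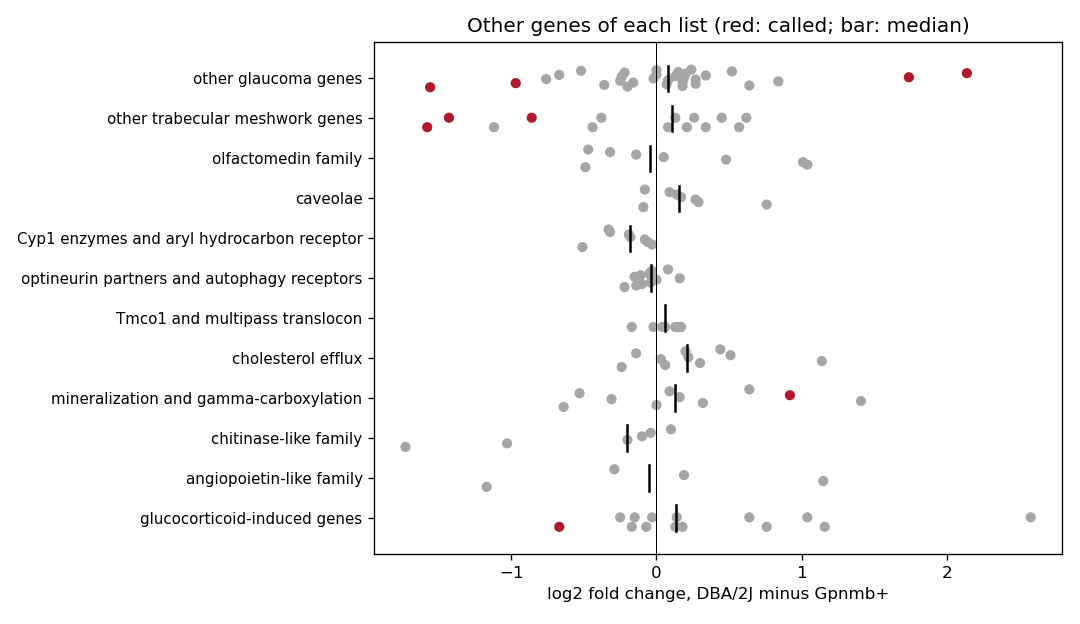
Log2 fold change, DBA/2J minus Gpnmb+, of the other genes of each family or pathway, with the 10 glaucoma and meshwork genes themselves left out, called genes in red and a bar at each list's median. The medians lie between -0.20 and 0.21, and the called genes are in 4 of the 12 lists. Chia1 is not drawn because it had at most 3 counts in every DBA/2J pool.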

How the data were processed

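RNA was measured in 3 DBA/2J and 2 Gpnmb+ pools. Per the labels and the study's methods, fastp trimmed the reads and STAR aligned them to GRCm39. The table the authors deposited holds the raw, unnormalized counts per gene, made from reads with a single alignment. Versions of these tools and the counting strand are not given in the sources used here, so values of genes with overlapping antisense genes are uncertain.

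Names, positions and exon lengths came from GENCODE release M39 (Ensembl release 116), which held 56323 of 56941 identifiers. All value columns of the table were used, and no libraries were identical. Genes reaching 10 counts in 1 pool or more were tested in R 4.3.3 with edgeR 4.0.16 (TMM scaling, quasi-likelihood test without covariates) and Benjamini-Hochberg adjustment over all 19713 genes. A standard error is the absolute log2 fold change over the square root of F. The fitting procedure was tested on simulated data. DESeq2 1.42.0, ashr 2.2.63 and limma 3.58.1 served alternatives, and tables, sequences and figures were made in Python 3.11.15 with pandas 2.3.3, numpy 2.4.6, scipy 1.17.1 and matplotlib 3.10.9.

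The 10 genes and all gene lists were chosen with earlier results of these data known. Named genes are the 10 members, every called gene of each list or otherwise its 3 largest absolute log2 fold changes, the 3 genes most like a called member, and Gpnmb. Marker genes are named for their cell type. Alternatives were other scalings, filters, tests and thresholds, the pool number as a block, and each pool left out. Canonical transcript length was added after the data were seen. Pools are the replicates, so p-values measure spread between pools and not between mice. Common biological variation was 20.7%. Of the listed genes, 3 found no match in the annotation and were not analysed here. Some listed genes are not reported here by name. Proteomics was not used here.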

Additional observations from a re-analysis of the deposited data

How the results depend on the processing

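The 10 genes kept their direction under every other scaling, filter and test, and the exceptions came with pools left out. The log2 fold change of Tmco1 ran from -0.02 to 0.13, that of Abca1 from -0.02 to 0.35, that of Optn from -0.14 to 0.04 and that of Mgp from -0.19 to 0.04 with a pool left out, each changing sign in 1 fit: Tmco1 (-0.02) and Abca1 (-0.02) without Gpnmb+ pool 2, Optn (0.04) without DBA/2J pool 1 and Mgp (0.04) without DBA/2J pool 2. The same fits gave -1.38 to -0.85 for Myoc, 0.88 to 1.55 for Chil1, -1.13 to -0.52 for Angptl7, -0.57 to -0.35 for Cav1 and -0.56 to -0.12 for Cav2. Cyp1b1 ran from 0.73 to 0.88 and was called in none of them, and it lost its call with upper-quartile scaling (0.78) and with total counts (0.77). Without a Gpnmb+ pool the lone pool is assumed to vary like the other group. Chil1 was called without the count filter (1.19), with DESeq2's Wald test (1.18), with ashr moderation (1.04) and with the pool number as a block (1.23, adjusted p = 0.0318 by edgeR with Benjamini-Hochberg adjustment). Myoc was called with DESeq2's Wald test (-1.05) and with ashr moderation (-0.77).

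Of the 10 genes, 0 were called with upper-quartile scaling, with total counts and with each pool left out (0 to 0), where 4 passed the fold change minimum with an unadjusted p of 0.05 or less in the full edgeR fit. The number was 2 without the count filter, 2 with the block, 3 with DESeq2's Wald test and 3 with ashr moderation. Over all genes the number called was 360 without the count filter, 927 with DESeq2's Wald test, 734 with ashr moderation, 220 with the block and 1710 at unadjusted p-values. Leaving out pools gave 1 to 217, with 6, 1 and 17 calls without DBA/2J pools 1, 2 and 3, 217 without Gpnmb+ pool 1 and 2 without Gpnmb+ pool 2. The cause of these changes was not tested. The median log2 fold change of the other chitinase-like genes ran from -1.19 to 0.03 over all settings, the widest range of the 12 lists. The deviations of same-numbered pools from their group means had r = 0.279 and 0.254 over genes, but with 2 Gpnmb+ pools these deviations mirror each other and the values are not independent, and the labels give no shared animal or day, so the pairing is by number only. The common biological variation of 20.7% over 5 pools limits the precision for the 10 genes, and genes with few counts are limited by depth as well.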
